A study of Mus musculus with 6 samples.

Results

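The 10 genes described here encode the core of the prostaglandin and leukotriene pathway: the phospholipase Pla2g4a, the cyclooxygenases Ptgs1 and Ptgs2, the prostanoid synthases Ptges and Ptgis, the prostaglandin dehydrogenase Hpgd, the prostaglandin E2 receptor Ptger4, and the leukotriene genes Alox5, Alox5ap and Ltc4s. They were picked by name and by pathway, with earlier results of these data known. All 10 were found among the 22556 genes of the RNA-sequencing tables. All 10 also reached the mean of at least 1 TPM over the 6 samples that was required for a test, as did 16814 genes in all. Ltc4s, which was listed at 0 in both saline samples, and Ptgs2, which was near 0 there, met that limit only through the groups given caerulein.

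Prostaglandins and leukotrienes are signalling lipids made from arachidonic acid, which cytosolic phospholipase A2 (Pla2g4a) cuts from membranes. Cyclooxygenases turn the acid into prostaglandin H2, and terminal synthases then make prostaglandin E2, prostacyclin or thromboxane from it, whereas 5-lipoxygenase and its helper protein FLAP lead to the leukotrienes. In inflamed tissue these lipids act on blood flow, vessel leakage, pain and the recruitment of leukocytes, and Hpgd ends the signal of prostaglandin E2 by oxidising it.

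The study asked how polyI:C, a synthetic double-stranded RNA that is sensed by TLR3, affects acute pancreatitis (AP) in mice. Whole pancreas of wild-type C57BL/6 mice aged 8 weeks was sequenced in 3 groups of 2 samples. The saline group received no caerulein, the AP group received caerulein, an analogue of cholecystokinin that in excess overstimulates and injures acinar cells, and the polyI:C-pretreated AP group received polyI:C at 10 mg/kg before the same caerulein. Caerulein was injected 10 times at hourly intervals, and tissue was taken 24 h after the first injection. The labels give no polyI:C group without caerulein, and they name 2 samples per group without tying each to a separate animal, so the p-values measure the spread between these samples. All values are TPM, a relative transcript level that is corrected for gene length and sums to one fixed total per sample. The TPM files carry no read totals, and the depth estimated from the spacing of low TPM values ranged from 3293696 to 10826485 reads per sample, lowest in the saline samples. The transcription factors that define acinar cells were present in all 6 samples, with Ptf1a at 40.8 to 98.3 TPM and Rbpjl at 79.8 to 238 TPM.

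One sample stood apart from its group. In polyI:C-pretreated AP replicate 2, the summed level of 8 genes typical of small intestine, a list put together after the data were seen, was 3647 TPM, whereas the other 5 samples lay between 4.12 and 8.48 TPM. Other pathway genes shared this pattern. Pla2g12b, a secreted phospholipase A2, was at 8.07 TPM in that sample and at 0 in all others, and Mgst2, a microsomal glutathione transferase that can make leukotriene C4, was at 16.1 TPM there against 0.0805 to 1.06 TPM elsewhere. The fold changes of the 10 genes in the polyI:C-pretreated group, and those of other pathway genes given with a test, are therefore given with and without this sample. Without it the group is 1 sample, which the fit assumes to vary like the others.

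**Figure D1:**
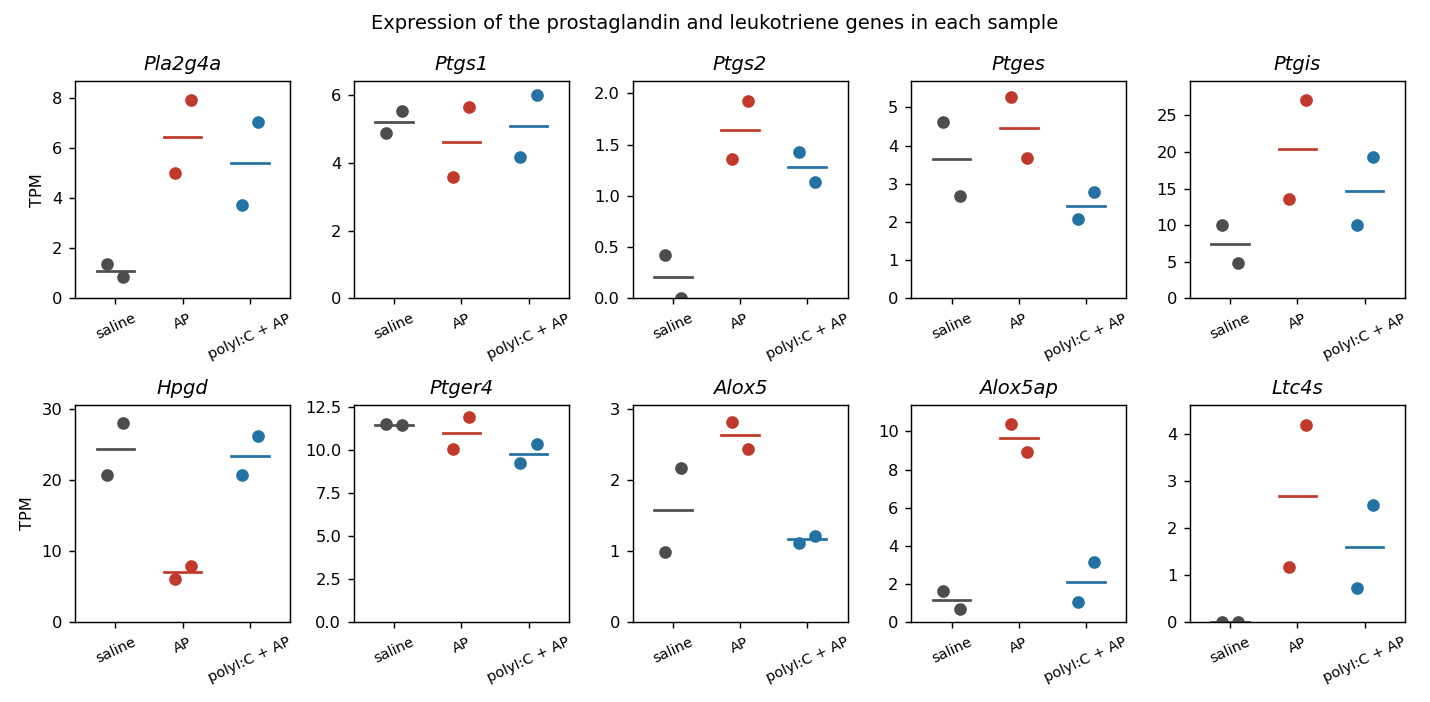
The level of each of the 10 genes in TPM (vertical axes, each starting at 0) is plotted for the 2 samples of each group (saline, AP, and polyI:C with AP), with points for samples and a line for the group mean. Hpgd is low only in the AP group at 6.12 and 7.92 TPM, Alox5ap is high only in the AP group at 10.4 and 8.95 TPM, and Pla2g4a is higher in both caerulein groups than in saline.

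In AP against saline samples, 4 of the 10 genes passed the threshold of an adjusted p of at most 0.05 (limma, Benjamini-Hochberg over 16814 genes) and a change of at least 2-fold. Pla2g4a, Ptgs2 and Alox5ap rose, and Hpgd fell. Among all tested genes 22.2% passed the same threshold in this comparison, with 18.2% higher and 4.03% lower. Over the 10 genes the log2 fold change had a median of 1.02, beside a median of 0.45 over all tested genes. At an unadjusted p of at most 0.05 and 2-fold, 6 of the 10 passed, where 25.1% of all tested genes did. Ptgs2 and Ltc4s met the limit for a test only through the caerulein groups, where they were higher. The counts and the median of the 10 are therefore no support for a direction of the set. In this whole-tissue RNA, fewer or more cells of a type cannot be told apart from less or more RNA per cell.

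Pla2g4a, the phospholipase A2 that releases arachidonic acid (ENSMUSG00000056220, minus strand of chromosome 1, 149829618 to 149961290, GRCm38), was measured at 1.38 and 0.847 TPM in the saline samples. It reached 5.002 and 7.91 TPM in the AP samples, and with polyI:C pretreatment it was at 3.74 and 7.05 TPM. Both caerulein groups lay wholly above saline and overlapped each other. The log2 fold change was 2.10 ± 0.37 (SE, limma adjusted p = 0.00482) for AP against saline and 1.83 ± 0.37 (limma adjusted p = 0.00877) for polyI:C-pretreated AP against saline. Between the caerulein groups it was -0.27, with a 95% interval of -1.16 to 0.63 (limma adjusted p = 0.82), and -0.68 without polyI:C-pretreated AP replicate 2 (limma adjusted p = 0.766). The rise in AP missed the threshold when AP replicate 2 was left out (1.79, limma adjusted p = 0.0829), and the rise with polyI:C missed it without saline replicate 2 (1.59, limma adjusted p = 0.067) or without polyI:C-pretreated AP replicate 2 (1.42, limma adjusted p = 0.0902).

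Ptgs1 and Ptgs2 encode the cyclooxygenases, the former present in most resting tissues and the latter induced in inflammation. Ptgs1 (ENSMUSG00000047250, plus strand of chromosome 2, 36230426 to 36252272) was nearly level, with 4.89 and 5.55 TPM in saline, 3.60 and 5.64 TPM in AP and 4.19 and 6.00 TPM in polyI:C-pretreated AP. Its groups overlapped in all 3 comparisons, and the log2 fold change in AP was -0.19 with a 95% interval of -0.95 to 0.58. Ptgs2 (ENSMUSG00000032487, plus strand of chromosome 1, 150100031 to 150108227) was at 0.427 and 0 TPM in saline, 1.36 and 1.92 TPM in AP and 1.43 and 1.13 TPM in polyI:C-pretreated AP. All 4 caerulein samples lay above both saline samples, at levels that stayed low, with an estimated 2.8 and 0 reads in saline and 13.3 to 23.8 in the other samples. Ptgs2 passed the threshold in AP against saline (1.64 ± 0.52 on the log2(TPM + 0.5) scale, limma adjusted p = 0.0445) but not in polyI:C-pretreated AP against saline (1.38 ± 0.52, limma adjusted p = 0.077, and 1.501 with limma adjusted p = 0.209 without replicate 2). The call in AP rested on the settings: with a pseudocount of 1 the limma adjusted p was 0.0664, with median-of-ratios scaling it was 0.0895, with the prior that follows the mean log2 value it was 0.089, and with the replicate number as a block it was 0.064. It was also lost without saline replicate 2 (1.20, limma adjusted p = 0.128), either AP sample (1.83 and 1.45, limma adjusted p = 0.131 and 0.22) or either polyI:C-pretreated AP sample (limma adjusted p = 0.0863 and 0.103).

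Pla2g4a and Ptgs2, which supply the substrate and the enzyme of the first steps, lie side by side on chromosome 1, 138740 bases apart with 0 of the tabled genes between them. Their starts face each other across this gap. The promoters of both and of Hpgd are printed below, because these genes moved in AP. The 250 bases before the start are given (RefSeq, GRCm38.p6), 5′ to 3′ on the strand of the gene. These 3 are the ones of the 10 genes that passed the threshold in AP against saline and have an entry in the RefSeq promoter table. Promoters of 8 of the 10 genes were matched there. Alox5ap and Ptgis were not. Capitals mark matches to the C/EBP motif TTNCNNAA on either strand. The first of several listed starts is shown for Pla2g4a (chr1:149961291-149961540, minus strand), and the others are those of Ptgs2 (chr1:150099781-150100030, plus strand) and Hpgd (chr8:56294302-56294551, plus strand).
Pla2g4a: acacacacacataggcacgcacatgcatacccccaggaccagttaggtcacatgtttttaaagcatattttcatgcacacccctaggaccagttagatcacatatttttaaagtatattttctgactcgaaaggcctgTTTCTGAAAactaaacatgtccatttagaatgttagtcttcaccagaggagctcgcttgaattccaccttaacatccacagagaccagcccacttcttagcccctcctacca
Ptgs2: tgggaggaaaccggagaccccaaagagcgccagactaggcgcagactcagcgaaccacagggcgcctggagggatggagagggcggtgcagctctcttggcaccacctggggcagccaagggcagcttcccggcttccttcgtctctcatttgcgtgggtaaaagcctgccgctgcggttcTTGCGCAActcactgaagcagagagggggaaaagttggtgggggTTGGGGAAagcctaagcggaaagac
Hpgd: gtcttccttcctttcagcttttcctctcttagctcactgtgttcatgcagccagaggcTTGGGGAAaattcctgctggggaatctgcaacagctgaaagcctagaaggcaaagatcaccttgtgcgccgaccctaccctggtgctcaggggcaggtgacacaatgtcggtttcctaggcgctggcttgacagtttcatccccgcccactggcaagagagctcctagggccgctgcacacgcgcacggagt
The motif was present in all 3 windows, 69 to 62 and 25 to 18 bases before the start in Ptgs2, 192 to 185 in Hpgd and, as overlapping matches on both strands, 112 to 104 in Pla2g4a. It was found in 36.8% of the 32851 promoters of the table, so its presence is common. Of the other motifs searched on both strands, the E-box CANNTG, which is held by 66.2% of all promoters, also matched in all 3. The TATA box TATAAA (12.4% of promoters), the cyclic AMP response element TGACGTCA (1.55%) and the AP-1 motif TGANTCA (6.75%) had no match in these 3 windows. The other listed start of Pla2g4a (chr1:149922440-149922689, minus strand) differed, with a TATA box match on the opposite strand 200 to 195 bases before the start and no C/EBP match.

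The terminal synthases gave no call. Ptges, the inducible prostaglandin E synthase (ENSMUSG00000050737, minus strand of chromosome 2, 30889471 to 30929863), was at 4.62 and 2.68 TPM in saline, 5.26 and 3.67 TPM in AP and 2.07 and 2.78 TPM in polyI:C-pretreated AP. Saline and AP overlapped, with a log2 fold change of 0.28 ± 0.37 that turned to -0.12 under median-of-ratios scaling. Both polyI:C-pretreated AP samples lay below both AP samples, without passing the test (log2 fold change -0.75 ± 0.37, limma adjusted p = 0.443, and -0.93 with limma adjusted p = 0.72 without replicate 2). Ptgis, the prostacyclin synthase of vessel walls and stroma (ENSMUSG00000017969, minus strand of chromosome 2, 167191805 to 167240604), was at 10.1 and 4.84 TPM in saline, 13.6 and 27.2 TPM in AP and 9.98 and 19.3 TPM in polyI:C-pretreated AP. The AP samples lay above saline but differed from each other by more than the gap between the groups, and the log2 fold change of 1.40 ± 0.49 missed the threshold (limma adjusted p = 0.0611). The summed level of 5 mesothelial genes (Msln, Upk3b, Wt1, Lrrn4 and Upk1b, none at 0) was likewise higher in replicate 2 of both caerulein groups. It was 105 TPM in AP replicate 2 and 74.2 TPM in polyI:C-pretreated AP replicate 2, against 38.1 and 37.0 TPM in the first replicates and 49.7 and 47.8 TPM in saline. Its part in the Ptgis values was not tested.

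Hpgd was the gene of this set that fell in AP and the only one past the threshold between the caerulein groups. Hpgd encodes 15-hydroxyprostaglandin dehydrogenase, which inactivates prostaglandin E2 (ENSMUSG00000031613, plus strand of chromosome 8, 56294585 to 56321043). It was at 20.8 and 28.03 TPM in saline, 6.12 and 7.92 TPM in AP and 20.6 and 26.1 TPM in polyI:C-pretreated AP. Both AP samples lay below all 4 others, and the saline and polyI:C-pretreated AP samples overlapped. Against saline, the mean level in AP was 3.48 times lower (7.02 ± 1.27 against 24.4 ± 5.14 TPM, SD, n = 2), with a log2 fold change of -1.72 ± 0.26 (SE, limma adjusted p = 0.00257). This call held in every alternative run, with log2 fold changes from -2.16 to -1.51 and limma adjusted p values up to 0.0437.

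Between polyI:C-pretreated AP and AP samples, Hpgd was the 1 gene of the 10 past the threshold, where 0.845% of all tested genes were (0.44% higher and 0.404% lower). At an unadjusted p, 2 of the 10 passed, Hpgd and Alox5ap, where 4.33% of all tested genes did. Its mean was 3.33 times higher (23.4 ± 3.89 TPM, SD, n = 2), with a log2 fold change of 1.67 ± 0.26 (SE, limma adjusted p = 0.0456). Both comparisons share the AP samples, so the fall and the rise are not independent of each other. Against saline the polyI:C-pretreated AP samples gave -0.05, with a 95% interval of -0.68 to 0.57, and -0.22 without replicate 2. The adjusted p lay close to 0.05 and was above it with a pseudocount of 0.1 (0.0632), no filter (0.0739), the filter of at least 0.5 TPM in 2 samples (0.0548) or the prior that follows the mean log2 value (0.0936), and whenever 1 sample was left out. Leaving out a sample of either caerulein group leaves 1 sample there, and these log2 fold changes are given without a test. Without polyI:C-pretreated AP replicate 2, the sample with the intestinal genes, the log2 fold change was 1.501. Without polyI:C-pretreated AP replicate 1 it was 1.84, without AP replicate 1 it was 1.49 and without AP replicate 2 it was 1.84. Leaving out saline replicate 1 or 2 kept the log2 fold change and gave limma adjusted p = 0.0716 and 0.0772. Replicate 1 of the polyI:C-pretreated AP group, whose intestinal genes were as low as in saline, was at 20.6 TPM, and replicate 2 was at 26.1 TPM. The part of the intestinal RNA in the Hpgd values was not tested.

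Of the 5 acinar transcription factors measured, Bhlha15, Rbpjl and Gata4 were lowest in AP like Hpgd, and Ptf1a and Nr5a2 were not. Bhlha15, which maintains the secretory state of acinar cells, was at 391 and 326 TPM in saline, 53.6 and 46.4 TPM in AP and 161 and 171 TPM in polyI:C-pretreated AP. Rbpjl, a partner of Ptf1a, was at 238 and 195, 104 and 79.8, and 196 and 191 TPM in the same order. The summed level of the 5 acinar factors was 829 and 705 TPM in saline, 354 and 305 TPM in AP and 645 and 663 TPM in polyI:C-pretreated AP, with none at 0. Whether Hpgd follows acinar cells was not tested.

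Ptger4, a prostaglandin E2 receptor that raises cyclic AMP (ENSMUSG00000039942, minus strand of chromosome 15, 5206661 to 5244187), was at 11.5 and 11.5 TPM in saline, 10.05 and 11.9 TPM in AP and 9.22 and 10.4 TPM in polyI:C-pretreated AP. The 6 samples kept within a narrow range. Its log2 fold change was -0.07 with a 95% interval of -0.44 to 0.31 in AP against saline, and -0.15 with an interval of -0.53 to 0.22 between the caerulein groups (-0.23 without polyI:C-pretreated AP replicate 2). A 2-fold change lay outside both intervals. Both polyI:C-pretreated AP samples lay below both saline samples. That log2 fold change was -0.22 with a 95% interval of -0.59 to 0.15, and -0.30 without polyI:C-pretreated AP replicate 2.

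The leukotriene arm was led by Alox5ap, which encodes FLAP, the membrane protein that hands arachidonic acid to 5-lipoxygenase (ENSMUSG00000060063, plus strand of chromosome 5, 149264767 to 149288153). Alox5ap was at 1.66 and 0.679 TPM in saline and at 10.4 and 8.95 TPM in AP. It was at 1.08 and 3.18 TPM in polyI:C-pretreated AP. The AP samples lay above all 4 others, and the polyI:C-pretreated AP samples overlapped saline. Its log2 fold change in AP against saline was 2.67 ± 0.58 (SE, limma adjusted p = 0.0105). The call was lost without saline replicate 2 (2.23, limma adjusted p = 0.0632), AP replicate 1 (2.57, limma adjusted p = 0.109) or AP replicate 2 (2.77, limma adjusted p = 0.0973).

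With polyI:C, Alox5ap was 4.54 times lower than in AP, but the log2 fold change of -2.07 ± 0.58 did not pass the test over all genes (95% interval -3.45 to -0.69, limma adjusted p = 0.173, unadjusted p = 0.00961). Without polyI:C-pretreated AP replicate 2 it was -2.68 (limma adjusted p = 0.39). Against saline it was 0.59 (limma adjusted p = 0.456), and -0.02 without that sample. The AP samples rest on an estimated 31.4 and 34.3 reads for this gene, and the other 4 on 1.1 to 14.8. An opposite-strand gene, Gm19719, shares 13.3% of the exon length of Alox5ap.

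Alox5, the 5-lipoxygenase itself (ENSMUSG00000025701, minus strand of chromosome 6, 116410077 to 116461178), was at 0.994 and 2.16 TPM in saline, 2.82 and 2.44 TPM in AP and 1.11 and 1.22 TPM in polyI:C-pretreated AP. As with Alox5ap, both AP samples were the highest, but no comparison passed the test (log2 fold change 0.65 ± 0.44, limma adjusted p = 0.291, in AP against saline and -0.91 ± 0.44, limma adjusted p = 0.431, between the caerulein groups, and -0.96 with limma adjusted p = 0.771 without polyI:C-pretreated AP replicate 2). Ltc4s, the leukotriene C4 synthase (ENSMUSG00000020377, minus strand of chromosome 11, 50236461 to 50238616), was listed at 0 in both saline samples, at 1.18 and 4.18 TPM in AP and at 0.719 and 2.48 TPM in polyI:C-pretreated AP. All 4 caerulein samples were above 0, on an estimated 1.9 to 11.5 reads each. The test against saline missed the threshold for AP (limma adjusted p = 0.066) and for polyI:C-pretreated AP (limma adjusted p = 0.135, and 0.356 without replicate 2). For AP it was passed with a pseudocount of 0.1 (limma adjusted p = 0.0228), with genes of at least 0.5 TPM in 2 samples (0.0474) and with protein-coding genes only (0.04). The opposite-strand gene Gm26542 shares 26.4% of the exon length of Ltc4s, and the strand setting of the authors' counting was not given in the sources used here.

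The 3 protein-coding genes whose centred log2(TPM + 0.5) values lay nearest to those of Alox5ap over the 6 samples, among 13508 genes, were Cd300ld, Pde1b and Lrrc25. Their Euclidean distances were 0.672, 0.693 and 0.748. Cd300ld, a CD300 family receptor, was at 3.63 and 0.955 TPM in saline, 11.9 and 12.7 TPM in AP and 2.16 and 3.90 TPM in polyI:C-pretreated AP. Lrrc25 was at 4.28 and 1.43, 16.7 and 17.9, and 4.11 and 5.85 TPM, and the phosphodiesterase Pde1b at 1.85 and 0.855, 6.81 and 7.39, and 0.775 and 3.49 TPM, in the same order.

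Like Alox5ap, macrophage genes were on the whole highest in AP. The summed level of 8 macrophage genes was 629 and 432 TPM in saline, 2539 and 2890 TPM in AP and 650 and 514 TPM in polyI:C-pretreated AP, with none of the 8 at 0 in any sample. In saline and AP most of this sum was Lyz2. In AP 7 of the 8 rose, where 18.2% of all tested genes did. Between the caerulein groups 4 of the 8 fell with polyI:C (0.404% of all tested genes did). Among these 4 were Lyz2 (1891 and 2118 against 203 and 119 TPM) and the mannose receptor Mrc1 (82.2 and 84.7 against 13.8 and 11.4 TPM). The median log2 fold change of the 8 between the caerulein groups was -1.89, and -1.93 without polyI:C-pretreated AP replicate 2, which leaves 1 sample in that group. Cd14 was nearly level between the caerulein groups, at 218 and 222 TPM in AP and 216 and 209 TPM in polyI:C-pretreated AP, against 15.7 and 13.9 TPM in saline. Against saline, 4 of the 8 passed the threshold as higher with polyI:C (16.9% of all tested genes did). These were Cd68 (1.78, limma adjusted p = 0.00132), Fcgr1 (1.44, limma adjusted p = 0.00454), C1qa (1.11, limma adjusted p = 0.0217) and Cd14 (3.80, limma adjusted p = 1.66e-05). Without replicate 2, which leaves 1 sample in the group, their log2 fold changes were 1.91, 1.54, 1.32 and 3.82, and the call on C1qa was lost. The other 4 of the 8 (Lyz2, Mrc1, Csf1r and Adgre1) had a lower mean with polyI:C than in saline. Of these Lyz2 (-1.24, limma adjusted p = 0.0116) and Csf1r (-1.01, limma adjusted p = 0.00296) passed the threshold against saline, and neither did without replicate 2 (-0.86 and -0.96, limma adjusted p = 0.0834 and 0.0375). The 6 neutrophil genes that were measured summed to 16.6 and 5.15 TPM in saline, 68.2 and 57.9 TPM in AP and 41.8 and 20.1 TPM in polyI:C-pretreated AP (Ly6g and Mpo were not analysed here). The lower sum with polyI:C than in AP was mostly Retnlg, with a mean of 31.7 TPM in AP and 4.51 TPM with polyI:C. Between these groups Retnlg and Csf3r were lower without overlap, and S100a8, S100a9 and Cxcr2 overlapped. The S100a8 mean was higher with polyI:C (8.90 against 7.79 TPM). The granule gene Elane was at 0 in saline and AP and at 0.415 and 1.32 TPM with polyI:C. Of the 4 neutrophil genes tested, 0 passed the threshold between the caerulein groups. The part of these cells in the Alox5ap, Alox5 and Ltc4s values was not tested.

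**Figure D2:**
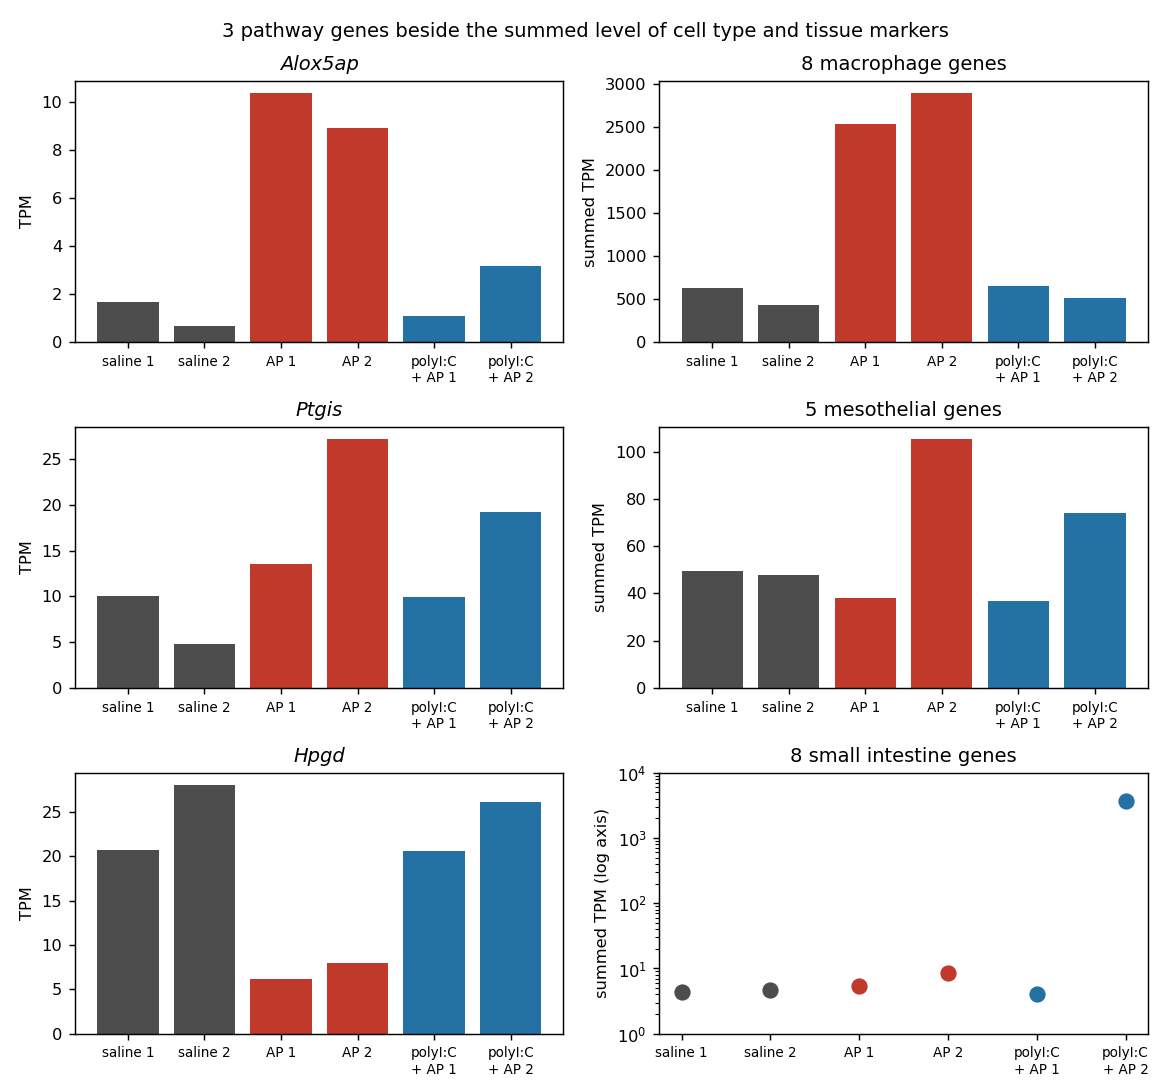
Alox5ap, Ptgis and Hpgd in TPM (left) stand beside the summed TPM of 8 macrophage, 5 mesothelial and 8 small intestine genes (right) in each of the 6 samples, with bars from 0 and, for the small intestine genes, points on a log axis. Alox5ap and the macrophage sum are highest in the AP samples, and Ptgis and the mesothelial sum are highest in AP replicate 2. The small intestine sum is 3647 TPM in polyI:C-pretreated AP replicate 2 alone, and Hpgd is at 20.6 and 26.1 TPM in replicates 1 and 2 of that group.

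Between the caerulein groups the 10 genes had a median log2 fold change of -0.36 (-0.80 without polyI:C-pretreated AP replicate 2), beside 0.04 over all tested genes. The groups did not overlap for 4 of the 10, Hpgd higher and Ptges, Alox5 and Alox5ap lower, where 49.8% of all tested genes did not overlap (27.7% higher and 22.1% lower). Against saline, Pla2g4a was the 1 gene past the threshold with polyI:C, where 19.9% of all tested genes were (16.9% higher and 2.97% lower), and 0 of the 10 were without polyI:C-pretreated AP replicate 2. At an unadjusted p, 2 of the 10 passed, Pla2g4a and Ptgs2, where 22.8% of all tested genes did. The median of the 10 was 0.27 (-0.12 without that sample and also -0.12 under median-of-ratios scaling), beside 0.48 over all tested genes. In AP against saline the groups did not overlap for 7 of the 10, 6 higher and 1 lower, where 69.1% of all tested genes did not (52.6% higher and 16.4% lower). With polyI:C against saline they did not overlap for 4 of the 10, 3 higher and 1 lower, where 68.4% of all tested genes did not (54.4% higher and 14.0% lower). The counts and medians against saline include Ptgs2 and Ltc4s, which met the limit for a test only through the caerulein groups.

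TPM values have a fixed total, and the scaling moved the level of all genes. With median-of-ratios scaling, which centres on the typical gene, the median of all tested genes in AP against saline went from 0.45 to 0.04 and the calls from 3053 higher and 677 lower to 1513 higher and 1266 lower. For polyI:C-pretreated AP against saline the median went from 0.48 to 0.04 and the calls from 2838 higher and 500 lower to 1281 higher and 1016 lower. Relative to the typical gene, Hpgd in AP was lower by more (-2.16, limma adjusted p = 0.00152), Pla2g4a and Alox5ap stayed past the threshold (1.75 and 2.32, limma adjusted p = 0.0144 and 0.0256), and Ptger4 was lower at -0.50 (limma adjusted p = 0.0482), short of 2-fold. With polyI:C against saline, Ptger4 was at -0.68 under this scaling (limma adjusted p = 0.0193), also short of 2-fold.

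The wider eicosanoid pathway was described with a list of 62 genes, of which 58 were in the tables and 42 were tested, the 10 genes included. In AP against saline, 12 of the 42 rose and 4 fell (11 and 4 without polyI:C-pretreated AP replicate 2), with a median log2 fold change of 0.56, beside 18.2% higher, 4.03% lower and a median of 0.45 over all tested genes. With median-of-ratios scaling 8 rose and 4 fell, with a median of 0.15. Of the 12 that rose, 5 (Ptgs2, Ptger2, Alox8, Aloxe3 and Ltb4r1) had a mean below 1 TPM in saline and met the limit for a test only through groups where they were higher, so the count is no support for a direction of the list. Between the caerulein groups 1 of the 42, Hpgd, passed the threshold (0.845% of all tested genes). The median log2 fold change of the 42 there was -0.18, and -0.16 without that sample, which leaves 1 sample in its group. With polyI:C against saline 7 rose and 3 fell, where 16.9% and 2.97% of all tested genes did, and 3 rose and 2 fell without it.

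Among the phospholipases A2, 1 of 8 tested rose in AP, Pla2g4a, and 1 fell, where 18.2% of all tested genes rose and 4.03% fell. Pla2g1b, the digestive phospholipase secreted by acinar cells, fell from 2564 and 1300 TPM in saline to 457 and 359 TPM in AP, with 228 and 207 TPM in polyI:C-pretreated AP (log2 fold change -2.17 ± 0.30, limma adjusted p = 0.0017, in AP against saline). The terminal synthases held 3 genes that rose of 8 tested, beside the 18.2% of all tested genes. Tbxas1, the thromboxane synthase, was at 1.80 and 0.970 TPM in saline, 6.16 and 6.97 TPM in AP and 2.57 and 2.05 TPM in polyI:C-pretreated AP. Its rise in AP was 1.94 ± 0.28 (limma adjusted p = 0.00196, and 0.0506 without AP replicate 2), and the lower level with polyI:C did not pass (-1.33 ± 0.28, limma adjusted p = 0.0846, and -1.20 with limma adjusted p = 0.476 without replicate 2) except with voom on estimated reads (-1.53, limma adjusted p = 0.0129). Akr1b3, an aldose reductase with prostaglandin F synthase activity, and Ptges3, a cochaperone and prostaglandin E synthase, rose in AP by 1.23 and 1.005 on the log2 scale (limma adjusted p = 0.000461 and 0.000434), and both were under 2-fold with median-of-ratios scaling (0.79 and 0.56). Ptges3 was also under 2-fold with protein-coding genes only (0.98), without saline replicate 1 (0.97) and without AP replicate 2 (0.94). Cbr1, a carbonyl reductase that converts prostaglandin E2 to F2-alpha, was at 147 and 153 TPM in AP and 228 and 282 TPM with polyI:C, a difference of 0.75 that fell short of 2-fold (limma adjusted p = 0.0466, and 0.601 with limma adjusted p = 0.209 without replicate 2).

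In the inactivation step, Hpgd and Ptgr1 went in opposite directions in AP. Ptgr1, a reductase that acts on the product of Hpgd and on leukotriene B4, was at 9.55 and 7.34 TPM in saline, 72.0 and 88.8 TPM in AP and 111 and 153 TPM in polyI:C-pretreated AP. Against saline it rose by 3.18 ± 0.21 in AP (limma adjusted p = 0.000128) and by 3.88 ± 0.21 with polyI:C (limma adjusted p = 7.13e-05, and 3.65 with limma adjusted p = 0.00652 without replicate 2). Abcc4, which exports prostaglandins from cells, passed the threshold with polyI:C against saline (13.5 and 16.7 against 5.26 and 5.44 TPM, log2 fold change 1.40 ± 0.17, limma adjusted p = 0.00109, and 1.25 with limma adjusted p = 0.0185 without replicate 2), but was under 2-fold with median-of-ratios scaling (0.96).

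Of the 4 tested prostanoid receptors, Ptger2 rose in AP. Like Ptger4 it signals through cyclic AMP, and it was at 0 and 0.229 TPM in saline, 2.67 and 2.81 TPM in AP and 0.621 and 0 TPM in polyI:C-pretreated AP (log2 fold change 2.42 ± 0.55, limma adjusted p = 0.0126, in AP). The call was lost without saline replicate 1 (2.15, limma adjusted p = 0.067), AP replicate 1 (2.46, limma adjusted p = 0.102) or AP replicate 2 (2.39, limma adjusted p = 0.116). The lower level with polyI:C did not pass (-2.11 ± 0.55, limma adjusted p = 0.147, and -1.53 with limma adjusted p = 0.569 without replicate 2). Ptger2 met the limit of 1 TPM for a test only through the AP group. Ptger3, which lowers cyclic AMP, was the most abundant receptor of the list per transcript length, at 151 and 163 TPM in saline, 169 and 128 TPM in AP and 267 and 235 TPM in polyI:C-pretreated AP, with a difference of 0.77 between the caerulein groups (limma adjusted p = 0.0706, and 0.86 with limma adjusted p = 0.362 without replicate 2).

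Of the 6 tested genes listed with the lipoxygenases, the helper gene Alox5ap among them, 3 rose in AP, where 18.2% of all tested genes did. Alox8 and Aloxe3 met the limit for a test only through the caerulein groups, so this count is no support for a direction of the step. Beside Alox5ap, the genes that rose were Alox8, at 0.576 and 0.532 TPM in saline, 4.04 and 3.35 TPM in AP and 3.29 and 2.68 TPM in polyI:C-pretreated AP, and Aloxe3, at 0.145 and 0, 2.48 and 2.20, and 1.78 and 1.32 TPM. For both, the caerulein groups lay above saline with and without polyI:C (limma adjusted p = 0.00515 and 0.00332 in AP, 0.0097 and 0.00884 with polyI:C), and each call was lost when a sample of the caerulein group compared was left out (limma adjusted p from 0.051 to 0.0696). Alox15 had another pattern. It was at 5.30 and 2.37 TPM in saline, 2.80 and 4.56 TPM in AP and 0.403 and 0.640 TPM in polyI:C-pretreated AP, with both polyI:C samples below the other 4. It fell against saline (-2.01 ± 0.52, limma adjusted p = 0.0215), a call lost without saline replicate 1 or any caerulein-treated sample (limma adjusted p from 0.0656 to 0.131), and against AP it did not pass (-2.01 ± 0.52, limma adjusted p = 0.145). Without polyI:C-pretreated AP replicate 2 both were -2.18 (limma adjusted p = 0.105 and 0.508).

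Of the 7 tested genes of leukotriene synthesis and conversion, 1 rose and 2 fell in AP, where 18.2% of all tested genes rose and 4.03% fell. Ggt1, a gamma-glutamyltransferase that turns leukotriene C4 into D4 and also salvages glutathione, fell from 463 and 564 TPM in saline to 105 and 99.1 TPM in AP and 95.4 and 105 TPM in polyI:C-pretreated AP (log2 fold change -2.32 ± 0.12, limma adjusted p = 6.28e-05, in AP). Dpep1, the dipeptidase for leukotriene D4, fell from 58.8 and 69.7 TPM to 26.9 and 26.9 TPM in AP (-1.24 ± 0.21, limma adjusted p = 0.00399, and 0.0609 or 0.0613 without either AP sample), with 38.0 and 57.6 TPM in polyI:C-pretreated AP. Mgst3, a microsomal glutathione transferase, rose from 58.7 and 65.3 TPM to 118 and 173 TPM in AP (1.20 ± 0.31, limma adjusted p = 0.0209), with 136 and 254 TPM in polyI:C-pretreated AP. The Mgst3 call in AP was lost with median-of-ratios scaling (0.75, limma adjusted p = 0.119) and without any of the 4 saline and AP samples (0.93 to 1.48, limma adjusted p from 0.078 to 0.192). The high-affinity leukotriene B4 receptor Ltb4r1 was listed at 0 in both saline samples, at 5.71 and 3.72 TPM in AP and at 0.547 and 0.653 TPM in polyI:C-pretreated AP. It passed the threshold in AP against saline (limma adjusted p = 0.00493) but not between the caerulein groups (-2.22 ± 0.60, limma adjusted p = 0.164, unadjusted p = 0.00847, and -2.29 with limma adjusted p = 0.459 without replicate 2). Ltb4r1 met the limit for a test only through the AP group.

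**Figure D3:**
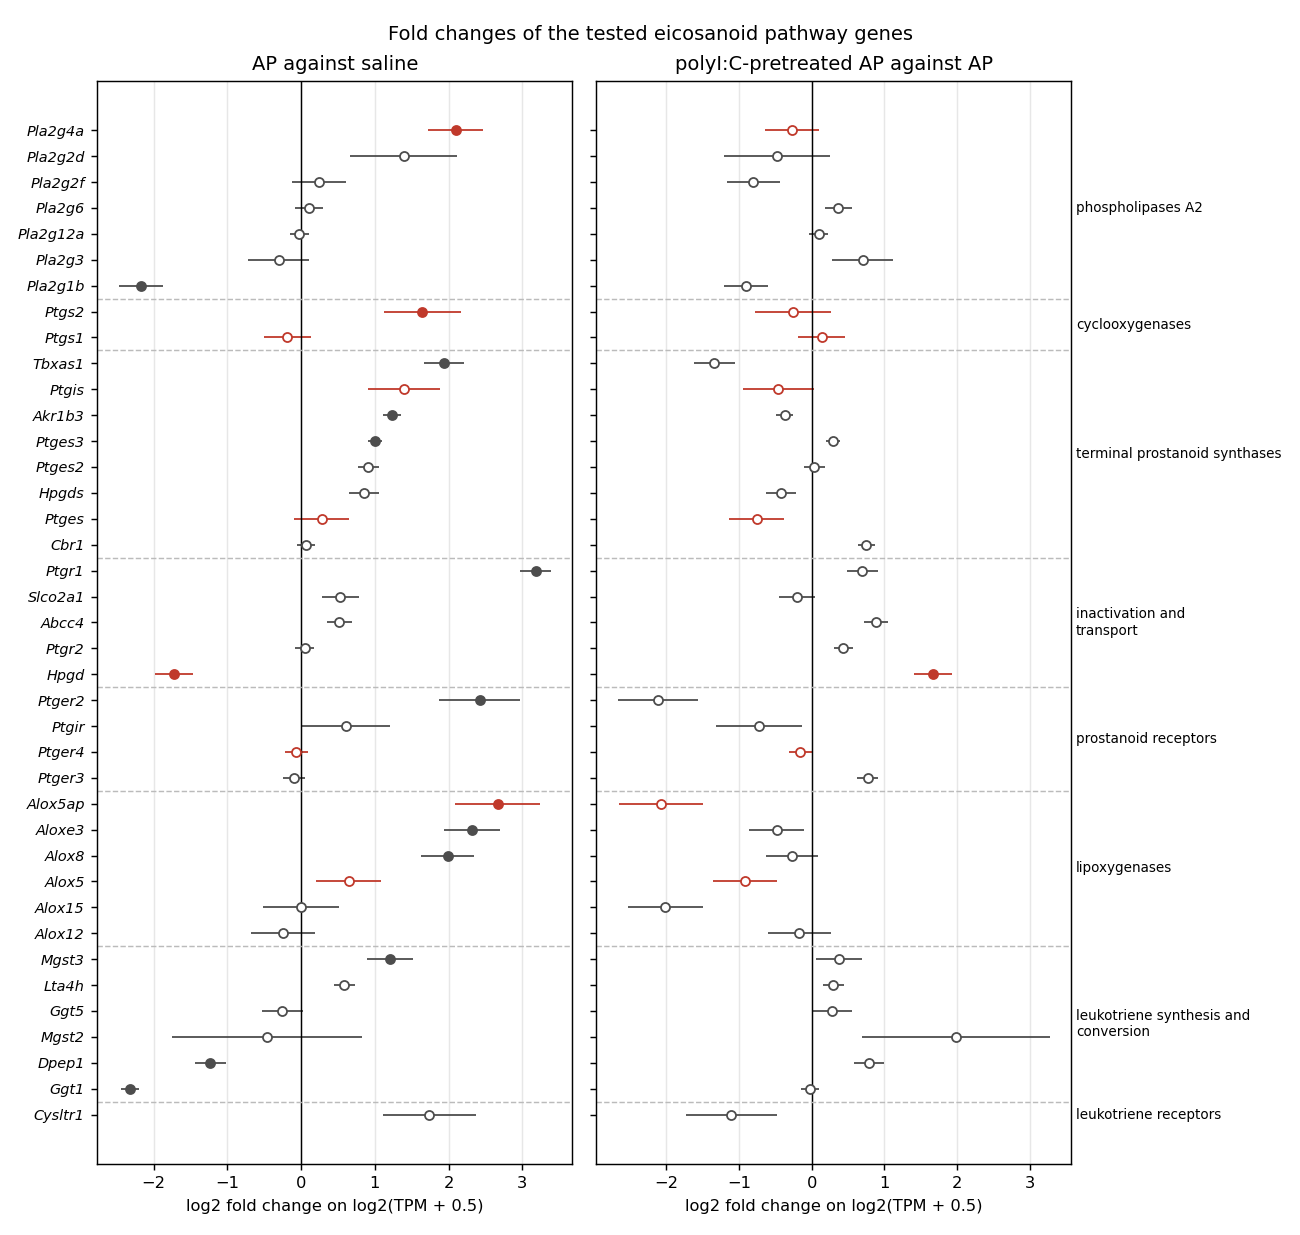
Log2 fold changes on the log2(TPM + 0.5) scale (horizontal axes) are drawn for the tested pathway genes with a level above 0 in saline, in AP against saline (left) and polyI:C-pretreated AP against AP (right), with lines of 1 SE, filled points past the threshold and those of the 10 genes described first in red. Ltc4s, Ltb4r1 and Pla2g12b, at 0 in saline, are not drawn. Filled points lie on both sides of 0 on the left, and on the right Hpgd at 1.67 is the only one.

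Among the other marker lists, the platelet sum, mostly Pf4 there, was also highest in AP. The summed level of 4 platelet genes was 33.2 and 10.2 TPM in saline, 77.9 and 49.3 TPM in AP and 11.5 and 11.5 TPM in polyI:C-pretreated AP, of which Ppbp passed the threshold in AP (0 of the 4 rose without polyI:C-pretreated AP replicate 2), whereas Gp1ba was highest in saline (4.22 and 2.92 TPM, against 1.26 and 0.998 TPM in AP and 0.809 and 0.584 TPM with polyI:C). Their part in the Tbxas1 values was not tested. Fibroblast and stellate genes summed to 851 and 630, 797 and 969, and 829 and 702 TPM in the same order of groups. Of these, 4 of 7, the collagens Col1a1, Col1a2 and Col3a1 and Lum, rose in AP (18.2% of all tested genes did). In saline most of this sum was Dcn, which went the other way, from 671 and 540 TPM in saline to 308 and 425 TPM in AP. Its log2 fold change of -0.73 (limma adjusted p = 0.0332) was short of 2-fold. The 6 duct genes summed to 309 and 262, 1330 and 1305, and 1159 and 1143 TPM, and 3 of the 6 rose in AP (18.2% of all tested genes did). In saline most of the sum was Muc1 (226 and 174 TPM), and in AP most of it was Krt19 (51.2 and 62.4 TPM in saline, 1016 and 1041 TPM in AP). Endothelial genes (6) summed to 60.1 to 87.8 TPM and smooth muscle genes (4) to 13.1 to 70.0 TPM over all samples. Mast cell genes (7 of 8 measured) summed to 25.6 to 39.5 TPM, most of it Kit, with the defining gene Fcer1a at 0 in the saline and polyI:C-pretreated AP samples and 0.895 and 1.18 TPM in AP. B cell genes (4) summed to 2.19 to 42.0 TPM, highest in AP replicate 2, and T cell genes (5) to 1.14 to 6.23 TPM. The 7 interferon response genes, which polyI:C is known to induce, summed to 23.3 and 21.3 TPM in saline, 122 and 183 TPM in AP and 633 and 615 TPM in polyI:C-pretreated AP.

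**Figure D4:**
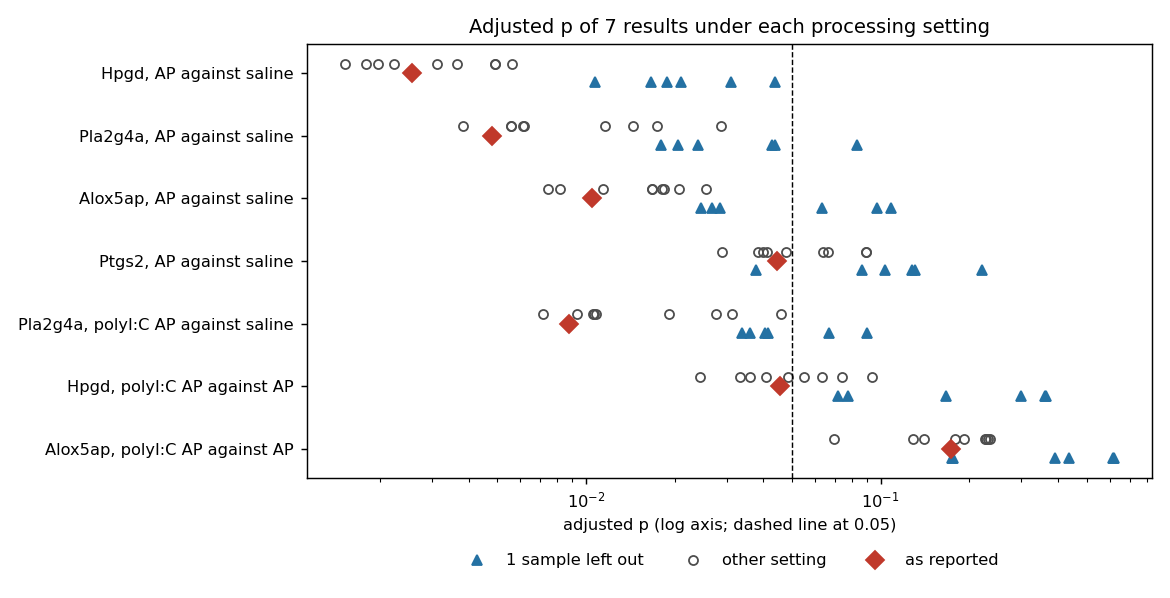
The adjusted p (horizontal log axis, dashed line at 0.05) of 7 results on Hpgd, Pla2g4a, Alox5ap and Ptgs2 is shown as reported (diamonds), under each other processing setting (open circles) and with 1 sample left out (triangles). Hpgd in AP against saline stays left of the line throughout, Hpgd in polyI:C-pretreated AP against AP crosses it with any sample left out, and Alox5ap in that comparison lies right of it throughout.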

How the data were processed

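Pancreas RNA was sequenced for 2 saline, 2 AP and 2 polyI:C-pretreated AP samples. The labels name both a ribosomal RNA depletion kit and a stranded mRNA kit, and the study's methods name the latter, so which selection was used is not settled. Trimmomatic was used by the authors for trimming, STAR for mapping to mm10 and HTSeq for counting. What the authors deposited is 1 table of TPM per sample. The step from counts to TPM and the strand setting were not given in the sources used here. Symbols, exon lengths and coordinates came from GENCODE M21 (GRCm38), which held 22490 of the 22556 identifiers.

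Because TPM are not counts, limma 3.58.1 in R 4.3.3 was fitted to log2(TPM + 0.5) of 16814 genes (mean over the samples of 1 TPM or more), with 1 coefficient per group over all 6 samples. The prior variance followed log2(mean TPM × exon length + 1), with the median exon length used for 36 genes without a length. P-values were adjusted by Benjamini-Hochberg over all tested genes, and genes passed the threshold at an adjusted p of at most 0.05 and at least 2-fold. A fold change on log2(TPM + 0.5) understates the change of low genes. With 2 samples per group an exact permutation test cannot go below p = 0.333, so none was used.

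Read depth was estimated from the spacing of low TPM values: 51.1% to 62.5% of values up to 20 reads lay within 0.1 of a whole multiple, against 18.9% to 20.3% with shuffled lengths. Counting error is thus largest in saline.

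The 10 genes, the pathway list and the marker lists (macrophage, neutrophil, mast cell, endothelial, fibroblast and stellate, smooth muscle, mesothelial, duct, acinar, B cell, T cell, platelet, interferon response) were chosen with earlier results of these data known, and the small intestine list after seeing these values. Of other pathway genes, those past the threshold in any comparison were named, to at most 15 by size of change, together with genes that describe a step, defining markers, and the 3 genes nearest to the member of largest change. Cpa1, Cela1, Cel, Ly6g, Mpo and Ms4a2 were not analysed here. Alternatives were pseudocounts of 0.1 and 1, 2 other filters, median-of-ratios scaling, protein-coding genes only, another prior, unadjusted p, voom on estimated reads, a replicate block and leaving out each sample.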

Additional observations from a re-analysis of the deposited data

Results flagged for a closer look

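The summed level of 8 small intestine genes (Fabp1, Fabp2, Alpi, Sis, Vil1, Cdh17, Apoa4 and Cdx1) was 3647 TPM in polyI:C-pretreated AP replicate 2 and 4.32 to 4.67 TPM in the saline samples. It was picked out because these genes, although among the tested genes, are used in no comparison described here and stood above the control samples in 1 sample. Fabp1 alone was at 1430 TPM there, against 0 to 3.35 TPM elsewhere. The list was chosen after the high Mgst2 and Pla2g12b values of that sample were seen, and where the RNA came from was not tested.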

How the results depend on the processing

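Of the 10 genes, Hpgd in AP against saline was past the threshold in all 16 alternatives. In AP against saline, leaving out 1 sample gave 1 to 4 of the 10 genes past the threshold (4 with all samples; 2 without saline replicate 2 or AP replicate 1 and 1 without AP replicate 2) and 2399 to 3648 genes in all (3730 with all samples; 2399 without AP replicate 2).

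Between the caerulein groups, 142 genes passed. The count was 90 with no filter on low values, 28 with the prior that follows the mean log2 value, 333 with voom on estimated reads and 728 with unadjusted p, and 0 to 80 with 1 sample left out. The lowest counts came without AP replicate 1, AP replicate 2 or polyI:C-pretreated AP replicate 2, each of which leaves 1 sample in a group compared. With all samples, 1 of the 10 genes passed between the caerulein groups. The count was 0 with a pseudocount of 0.1, no filter, the filter of at least 0.5 TPM in 2 samples or the other prior, 0 with any sample left out, and 2 with unadjusted p. With polyI:C against saline, 1 of the 10 passed, 2 with a pseudocount of 0.1 or unadjusted p, and 0 to 1 with 1 sample left out.

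Direction turned for Ptges in AP against saline with median-of-ratios scaling (-0.12), for Alox15 there with a pseudocount of 1 (-0.0043), median-of-ratios scaling (-0.39), protein-coding genes only (-0.019) and voom (-0.036), and for Ptger2 in polyI:C-pretreated AP against saline with voom (-0.13). None of these had passed the test. The cause was not tested.

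With 1 sample left out, the log2 fold changes that turned ranged as follows. In AP against saline they were -0.48 to 0.10 for Ptgs1, -0.062 to 0.62 for Ptges, -0.18 to 0.0497 for Ptger4 and -0.51 to 0.51 for Alox15. Between the caerulein groups they were -0.68 to 0.15 for Pla2g4a, -0.15 to 0.43 for Ptgs1, -0.94 to 0.031 for Ptgis, -1.30 to 0.18 for Ltc4s, -0.10 to 0.046 for Ggt1 and -0.0702 to 0.83 for Mgst3. With polyI:C against saline they were -0.28 to 0.19 for Ptgs1, -0.27 to 0.16 for Hpgd, -0.68 to 0.15 for Alox5, -0.016 to 1.21 for Alox5ap and -0.27 to 0.89 for Ptger2. None of these passed the test with all samples.

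No pairing by replicate number was seen over the tested genes as a whole: deviations from the group means of same-numbered samples correlated at 0.0075 (saline and AP), -0.0039 (saline and polyI:C-pretreated AP) and 0.035 (AP and polyI:C-pretreated AP) over 16814 genes. With 2 samples per group, these correlations cannot exclude a pairing or a batch that acts on some genes only. With the replicate block, 3646, 124 and 3287 genes passed in AP against saline, polyI:C-pretreated AP against AP and polyI:C-pretreated AP against saline, and of the named results the call on Ptgs2 in AP was the 1 lost. Depth limits Ptgs2, Ltc4s and Alox5ap most, each with under 4 estimated reads in a saline sample.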
